A study of Mus musculus with 12 samples.

Results

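The genes described here are the mouse zinc-finger genes named Zfp plus a number. All symbols of that form in the deposited count table were taken, whatever their level or change, and there were 256 of them among 11385 genes. Total RNA had been sequenced from pools of 50 oocytes at the germinal-vesicle stage, which is held in meiotic prophase, after the surrounding cumulus cells were stripped off. The mice, of strain C57BL/6J by the labels, were 21 to 23 days old and had received no priming. The groups were Mfn1-/- (loss of mitofusin 1), Mfn2-/- (loss of mitofusin 2), Mfn1&2-/- (loss of both) and WT, with 3 pools each. Mitofusins are GTPases that join mitochondria at their outer membranes. The labels name no promoter, Cre line or litter behind the losses and do not say that pools came from separate animals, so a p-value here reflects only how much the pools of a group vary. The label of 1 pool spells its genotype "Mn2-/-", and its description placed it in Mfn2-/-.

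Zfp proteins carry C2H2 zinc fingers, short loops folded around a zinc ion that read DNA one after another. Many also carry a KRAB domain, which recruits Trim28 and, through it, the histone methyltransferase Setdb1, and these proteins are known for silencing retrotransposons. Zfp57 and Zfp445 protect the DNA methylation of imprinted genes that the oocyte passes to the embryo. KRAB genes arose by repeated local duplication and often lie side by side in clusters. In a search of the longest open reading frame in the GENCODE vM21 transcripts, 246 of the 256 members held at least 1 C2H2 pattern, with a median of 10 and up to 36. A KRAB pattern was found in 120 members. No match says only that the pattern searched was not in that reading frame.

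The promoters of 5 members are shown here, chosen by position and change. Of these, 4 belong to the largest cluster of members, on chromosome 17, and were called in Mfn2-/- against WT. The fifth, Zfp534, had the largest loss shared by both groups that lack Mfn2 and lies near Mfn2. Each window runs from 250 bases before to 50 bases after the start of a transcript in RefSeq (GRCm38.p6), written 5′ to 3′ on the gene's strand, with CG dinucleotides in capitals. The windows are chr17:21962415-21962714 on the minus strand for Zfp942, chr17:22361351-22361650 on the minus strand for Zfp944, chr17:21845710-21846009 on the minus strand for Zfp820, chr17:21707491-21707790 on the plus strand for Zfp760 and chr4:147702582-147702881 on the minus strand for Zfp534.
Zfp942: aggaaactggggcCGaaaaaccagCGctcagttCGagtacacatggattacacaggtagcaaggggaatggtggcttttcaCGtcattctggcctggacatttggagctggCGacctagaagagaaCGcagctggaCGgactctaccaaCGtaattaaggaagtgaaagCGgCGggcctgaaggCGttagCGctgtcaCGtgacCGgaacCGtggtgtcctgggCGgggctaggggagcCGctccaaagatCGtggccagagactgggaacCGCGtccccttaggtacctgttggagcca
Zfp944: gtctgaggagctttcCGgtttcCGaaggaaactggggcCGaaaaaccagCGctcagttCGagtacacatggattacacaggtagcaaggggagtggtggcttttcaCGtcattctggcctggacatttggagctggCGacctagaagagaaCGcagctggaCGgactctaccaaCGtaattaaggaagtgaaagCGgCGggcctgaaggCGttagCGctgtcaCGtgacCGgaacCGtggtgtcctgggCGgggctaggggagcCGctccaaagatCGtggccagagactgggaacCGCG
Zfp820: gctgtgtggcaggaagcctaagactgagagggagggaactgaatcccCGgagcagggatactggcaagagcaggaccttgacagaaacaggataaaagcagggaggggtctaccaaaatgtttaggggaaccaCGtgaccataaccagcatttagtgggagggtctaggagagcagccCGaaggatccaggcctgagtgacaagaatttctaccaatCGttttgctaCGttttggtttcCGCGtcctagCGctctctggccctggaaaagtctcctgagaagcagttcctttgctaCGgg
Zfp760: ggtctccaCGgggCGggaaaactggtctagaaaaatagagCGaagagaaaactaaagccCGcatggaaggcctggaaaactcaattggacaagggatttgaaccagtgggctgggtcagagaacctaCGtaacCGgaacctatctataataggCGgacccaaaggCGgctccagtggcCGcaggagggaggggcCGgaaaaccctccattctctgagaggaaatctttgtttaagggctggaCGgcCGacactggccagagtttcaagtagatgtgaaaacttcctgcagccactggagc
Zfp534: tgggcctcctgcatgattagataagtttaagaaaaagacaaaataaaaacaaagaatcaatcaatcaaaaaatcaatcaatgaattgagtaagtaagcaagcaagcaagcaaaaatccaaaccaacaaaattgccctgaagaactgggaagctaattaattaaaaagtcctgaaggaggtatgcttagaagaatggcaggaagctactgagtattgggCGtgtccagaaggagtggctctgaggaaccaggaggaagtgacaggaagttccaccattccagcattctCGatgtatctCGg
The windows of Zfp942 and Zfp944 matched at 274 of 325 alignment columns (84.3%), with gap columns counted in the total. These windows start at different points of a shared sequence, so most of their unmatched columns are gaps at the ends. The other pairs among the 5 matched at 45.1 to 50.6% of columns, counted in the same way. Zfp942 had 20 CG dinucleotides, Zfp944 had 22, Zfp760 had 12, Zfp820 had 9 and Zfp534 had 3. Over the 264 windows of the 212 members with an entry, the median was 16 CG dinucleotides, against 7 over all 32851 windows. Taking the richest window of each member, the 25 with an entry that were called in Mfn2-/- or Mfn1&2-/- against WT had a median of 14, against 16 in the others. The letters CCGGAAG, on either strand, stood in 23.1% of member windows and 8.86% of all windows. GGGCGG stood in 47.7% and 35.7%, CCAAT in 45.1% and 37.4%, CACGTG in 7.20% and 7.15%, TAATTG in 4.55% and 8%, and TAATTA in 6.06% and 5.29%. None of these 6 motifs contains another. Among the 5 windows shown, CCAAT was in those of Zfp820, Zfp760 and Zfp534, CACGTG in those of Zfp942, Zfp944 and Zfp820, GGGCGG in those of Zfp942, Zfp944 and Zfp760, and TAATTA in those of Zfp942, Zfp944 and Zfp534.

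Libraries held 11575357 to 16024893 counts, and 3 counts, taken as the limit of detection, equal 0.188 to 0.253 CPM (counts scaled to a common library size with TMM factors). Mfn1 stood at 18.1 ± 0.696 CPM in Mfn1-/- and 20.1 ± 5.87 CPM in Mfn1&2-/-, against 279.7 ± 16.4 CPM in WT (SD, n = 3 each). Mfn2 stood at 11.2 ± 2.19 CPM in Mfn2-/- and 10.8 ± 1.31 CPM in Mfn1&2-/-, against 76.3 ± 9.75 CPM in WT. Of 18 oocyte markers 17 were in the table (Sohlh1 was not), and they summed to 20974 to 23792 CPM in Mfn2-/- libraries, above the 16401 to 19715 CPM of WT. Granulosa markers (11 of 15 in the table, with Amh, Foxl2, Nr5a1 and Amhr2 absent) summed to 441.6 to 542.2 CPM in the libraries of the 3 knockout groups. In WT they summed to 515.3 to 893.3 CPM, highest in replicate 3, so the lowest WT library lay within the knockout range. None of 9 theca and stroma markers was in the table. Of 10 markers of endothelium, blood and immune cells 3 were, among which Ptprc, Cdh5 and Cd68 were not, and these summed to 165 to 192 CPM in Mfn1&2-/- libraries, above the 139 to 145 CPM of WT. The part of these marker levels in the results below was not tested. In bulk RNA, fewer copies per cell and fewer cells with the transcript cannot be told apart.

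Members took a small and similar part of the oocyte RNA in every group. They held 1.49 ± 0.00642% of counts in Mfn1-/-, 1.39 ± 0.0126% in Mfn2-/- and 1.44 ± 0.0265% in Mfn1&2-/-, against 1.43 ± 0.0135% in WT (SD, n = 3 each). The 3 Mfn2-/- libraries (1.38 to 1.40%) lay below all 3 WT libraries (1.42 to 1.44%), and the 3 Mfn1-/- libraries (1.48 to 1.49%) above them. Mean level over the 12 libraries had a median of 17.9 CPM over members (quartiles 5.75 and 52.5, range 1.32 to 1883), against 24.9 CPM over all genes. In WT, 59 members were under 5 CPM and 34 at 100 CPM or more. The table holds only genes above 1 CPM in at least 3 libraries. Of 365 protein-coding genes named in this way in GENCODE vM21, 252 were in it, and the others are not analysed here.

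Zfp57 was the most abundant member, at 12.7% of all member CPM in WT, and the 10 most abundant held 39.0%. Zfp57 stood at 1517, 1760.2 and 1771 CPM in Mfn1-/-, 2014, 1761 and 1804 CPM in Mfn2-/- and 2346, 2106 and 1968 CPM in Mfn1&2-/-, against 1926, 1767 and 1856 CPM in WT. All 3 Mfn1&2-/- libraries lay above WT, but the comparison with WT was not called (log2 fold change 0.21 ± 0.09; adjusted p = 0.22). Here and below, a value after ± beside a log2 fold change is an approximate standard error, p-values come from edgeR's quasi-likelihood test with Benjamini-Hochberg adjustment over all 11385 genes, and "called" means an adjusted p below 0.05. Next in WT by CPM came Zfp592 (846), Zfp655 (554), Zfp828 (439.8), Zfp106 (383), Zfp68 (369), Zfp296 (333), Zfp957 (333), Zfp664 (286) and Zfp108 (286). Zfp592 belongs to a chromatin complex known from human cells, Zfp828 is now named Champ1 and aligns chromosomes on the spindle, and Zfp296 is a factor of pluripotent stem cells. Divided by exon length, Zfp57 also ranked first in WT, at 488.5 CPM per kb, followed by Zfp296 at 163.5 and Zfp592 at 114.1 CPM per kb. Of these 10 members, Zfp68 and Zfp296 were called in Mfn2-/- against WT, and none was called in Mfn1-/- or Mfn1&2-/- against WT.

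Loss of mitofusin 1 alone left no member called against WT, where 0.228% of all genes were called. At an unadjusted p below 0.05 there were 38 members, 14.8% of them, against 12.8% of all genes. DESeq2's Wald test called 4 members, and the share of all genes it called was not counted. No member was called past 2-fold, against 0.141% of all genes. The 3 Mfn1-/- libraries lay wholly above or below the 3 WT libraries for 57 members (22.3%), against 18.1% of all genes. The member with the smallest p was Zfp334, at 273, 229 and 198 CPM in Mfn1-/-, against 182, 162 and 157 CPM in WT (log2 fold change 0.48 ± 0.12; adjusted p = 0.103). Without Mfn1-/- replicate 3, or without WT replicate 1, 1 member was called.

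In Mfn2-/-, 23 members were called against WT, 5 higher and 18 lower. That is 8.98% of members, while 11.4% of all genes were called. By direction, 1.95% of members were called higher and 7.03% lower, against 4.52% and 6.87% of all genes. The median log2 fold change was -0.00079 over members and 0.01 over all genes, and neither median was far from 0. The number of calls was 13 without Mfn2-/- replicate 3 and 15 without WT replicate 3, the library with the highest granulosa markers. Of the 23, 8 remained called without any 1 of the 12 libraries: Zfp652, Zfp277, Zfp942, Zfp704, Zfp534, Zfp605, Zfp296 and Zfp111, all lower in Mfn2-/-.

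Among KRAB members, Zfp605 had the largest loss in Mfn2-/-. It stood at 0.799, 2.49 and 0.268 CPM in Mfn2-/-, against 13.5, 15.01 and 11.1 CPM in WT, and the groups were far apart (log2 fold change -3.52 ± 0.60; adjusted p = 0.00187, 5.86e-09 to 0.012 over 20 alternatives). In Mfn1-/- it was at 14.2, 19.8 and 16.99 CPM and in Mfn1&2-/- at 5.47, 6.90 and 1.36 CPM. All 6 libraries that lack Mfn2 were below all 6 that carry it, yet Mfn1&2-/- was not called against WT (-1.52 ± 0.53; adjusted p = 0.123). Its exons overlap those of Gm15484 on the opposite strand, and no source used here states the strand setting of the counting.

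Zfp534 fell to a like level in both groups that lack Mfn2. It stood at 1.66, 0.830 and 1.74 CPM in Mfn2-/- and 1.43, 1.71 and 1.06 CPM in Mfn1&2-/-, against 5.67, 9.19 and 11.5 CPM in WT; Mfn1-/- had 9.93, 10.3 and 15.7 CPM. The log2 fold change against WT was -2.62 ± 0.40 in Mfn2-/- (adjusted p = 0.000809) and -2.64 ± 0.40 in Mfn1&2-/- (adjusted p = 0.00136), and both calls remained without any 1 library. Both comparisons use the same WT pools. Zfp534 (chromosome 4, 147673502 to 147702553, GRCm38) lies 0.201 Mb from Mfn2, measured between the midpoints of the genes. Of its 100-base exon words, 40.2% also occur in transcripts of other genes, most often Gm8935, so its counts are uncertain if such reads were split. There were 3 other members within 10 Mb of a mitofusin gene. Between midpoints, Zfp933 lies 0.0535 Mb and Zfp600 1.71 Mb from Mfn2, and Zfp639 lies 0.0388 Mb from Mfn1. None of these 3 was called against WT. Zfp933 stood at 23.8 ± 2.56 CPM in Mfn2-/- and 21.4 ± 9.38 CPM in Mfn1&2-/-, against 20.5 ± 5.94 CPM in WT. Zfp639 stood at 13.0 ± 2.49 CPM in Mfn1-/- and 7.22 ± 0.263 CPM in Mfn1&2-/-, against 8.04 ± 2.91 CPM in WT. Whether position near the deleted gene plays a part in the Zfp534 result was not tested.

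**Figure D1:**
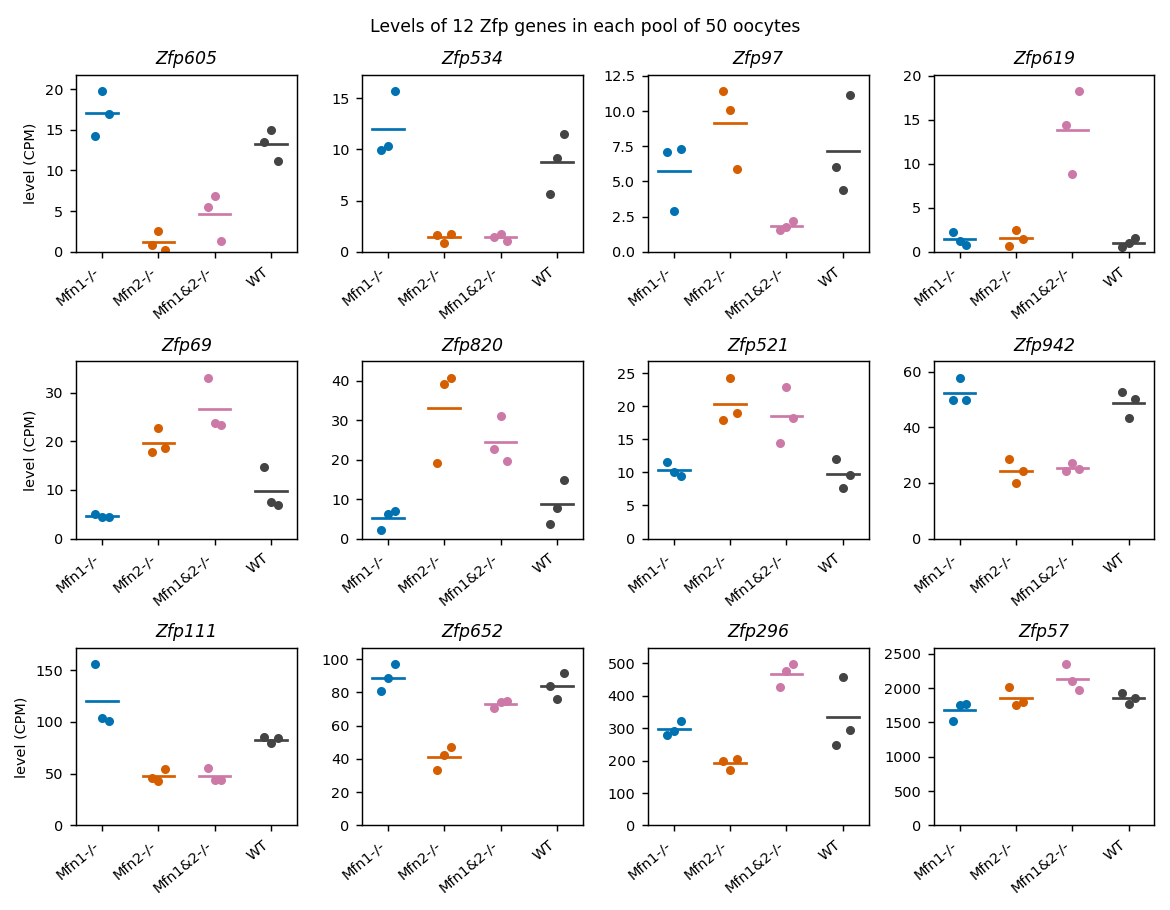
Level in CPM (linear axis from 0) of 12 Zfp genes; each point is 1 pool of 50 oocytes, each line the mean of 3 pools, with groups from left to right Mfn1-/-, Mfn2-/-, Mfn1&2-/- and WT. Zfp534, Zfp942 and Zfp111 are low in both groups that lack Mfn2, and Zfp619 is high in Mfn1&2-/-. Zfp652 is low in Mfn2-/- and just under WT in Mfn1&2-/-. Zfp296 is low in Mfn2-/- but not in Mfn1&2-/-.

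The other called losses were smaller, and most were in members at higher levels. Zfp652, a repressor known from human cells, was at 33.6, 42.1 and 47.0 CPM in Mfn2-/-, against 83.7, 76.2 and 91.5 CPM in WT (-1.04 ± 0.13; adjusted p = 0.000219, the smallest of any member in Mfn2-/- against WT). Its level in Mfn1&2-/-, 70.6, 74.2 and 74.9 CPM, lay just under WT and was not called (-0.19 ± 0.13; adjusted p = 0.478). Its exons overlap Phospho1 on the same strand. Zfp942 was at 28.6, 19.8 and 24.2 CPM in Mfn2-/-, against 52.6, 43.3 and 50.4 CPM in WT (-1.01 ± 0.16; adjusted p = 0.000958), which left 49.7% of its WT mean. Zfp111 was at 45.9, 42.5 and 54.95 CPM in Mfn2-/-, against 85.0, 79.2 and 84.3 CPM in WT (-0.79 ± 0.17; adjusted p = 0.00677). The groups did not overlap for any of these 3 genes. Zfp296 was at 199.7, 172 and 205 CPM in Mfn2-/-, against 249, 457 and 293 CPM in WT, again without overlap (-0.79 ± 0.16; adjusted p = 0.00643, up to 0.035 over 20 alternatives).

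Zfp704 stood at 15.8 ± 1.06 CPM in Mfn2-/-, against 29.3 ± 6.68 CPM in WT (-0.89 ± 0.19; adjusted p = 0.00807). Zfp277, which binds the Ink4a/Arf cell-cycle locus, fell by less (-0.52 ± 0.11; adjusted p = 0.00683), with 191, 153 and 154 CPM in Mfn2-/-, against 217, 243 and 256 CPM in WT. Zfp541, needed for meiotic prophase in spermatocytes, was at 77.7 ± 8.29 CPM in Mfn2-/-, against 117 ± 13.0 CPM in WT (-0.59 ± 0.14; adjusted p = 0.0138), and the call was lost without Mfn2-/- replicate 1 or WT replicate 3 (highest adjusted p 0.06). Zfp944 was at 39.8, 27.7 and 25.6 CPM in Mfn2-/-, against 47.8, 49.0 and 54.1 CPM in WT (-0.70 ± 0.16; adjusted p = 0.0127), lost without Mfn2-/- replicate 2 or 3 (highest adjusted p 0.0657). Zfp760 was called by a narrow margin, at 4.86, 2.99 and 3.01 CPM in Mfn2-/-, against 9.50, 8.43 and 6.18 CPM in WT (-1.15 ± 0.35; adjusted p = 0.0439), and 6 of the 12 omissions of 1 library ended the call. The remaining called losses, Zfp68, Zfp791, Zfp646, Zfp91, Zfp532, Zfp61 and Zfp407, ran from -0.56 to -0.42 on the log2 scale, and none of these 7 calls remained in all 12 omissions of 1 library. Zfp91 is a ubiquitin ligase and Zfp407 a regulator of glucose uptake in fat cells.

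The 5 members higher in Mfn2-/- were all at modest levels. Zfp820 stood at 19.1, 39.1 and 40.8 CPM in Mfn2-/-, against 3.59, 7.76 and 14.9 CPM in WT (1.92 ± 0.46; adjusted p = 0.0141), and the call was lost without Mfn2-/- replicate 3 or WT replicate 2 (highest adjusted p 0.0525). Zfp521, which holds back differentiation into fat and bone cells, stood at 17.9, 24.3 and 18.9 CPM in Mfn2-/-, against 12.1, 7.59 and 9.60 CPM in WT (1.06 ± 0.24; adjusted p = 0.0099; 0.0509 without Mfn2-/- replicate 2). For both genes the groups did not overlap. Zfp69, a modifier of diabetes in obese mice, stood at 17.8, 22.7 and 18.7 CPM in Mfn2-/-, against 14.7, 7.51 and 6.93 CPM in WT (1.02 ± 0.27; adjusted p = 0.0242), and omitting replicate 2 or 3 of either group ended the call (highest adjusted p 0.0975). Zfp39 had 8.59, 5.40 and 8.57 CPM in Mfn2-/-, against 2.56, 3.96 and 3.26 CPM in WT (1.21 ± 0.36; adjusted p = 0.0393), lost in 5 of 12 omissions. Zfp748 rested on 1 library, with 69.1, 31.9 and 25.8 CPM in Mfn2-/-, against 25.6, 18.9 and 17.04 CPM in WT (1.04 ± 0.33; adjusted p = 0.0497). Without Mfn2-/- replicate 1 its log2 fold change was 0.49.

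In Mfn1&2-/-, 15 members were called against WT, 6 higher and 9 lower. That is 5.86% of members, against 4.21% of all genes, with 2.34% of members higher and 3.52% lower, against 2.1% and 2.11% of all genes. The median log2 fold change was -0.0023 over members and 0.0028 over all genes. DESeq2's Wald test called 23 members, and a fit of only the groups compared called 9. The shares of all genes called by these 2 alternatives were not counted, and 4.21% belongs to the main fit only. Omitting replicate 2 or replicate 3 of Mfn1&2-/- gave 7 calls, of which 6 were among the 15. Omitting WT replicate 3 gave 8, of which 7 were among the 15. Zfp942, Zfp69, Zfp534 and Zfp619 remained called without any 1 of the 12 libraries.

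Zfp619, a KRAB member with 33 C2H2 patterns, was high in Mfn1&2-/- and low elsewhere. It stood at 14.4, 8.88 and 18.3 CPM in Mfn1&2-/-, against 2.26, 1.19 and 0.750 CPM in Mfn1-/-, 0.666, 2.49 and 1.41 CPM in Mfn2-/- and 0.479, 1.01 and 1.59 CPM in WT. The log2 fold change was 3.75 ± 0.58 against WT (adjusted p = 0.00157), 3.30 ± 0.56 against Mfn1-/- (adjusted p = 0.00266) and 3.20 ± 0.56 against Mfn2-/- (adjusted p = 0.00259), and each call held in all 20 alternatives run for it. The interaction of the 2 losses, which asks whether losing both differs from the sum of the single losses on the log scale, was 2.75 ± 0.79 for this gene and was not called (adjusted p = 0.0641).

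Zfp69 stood at 33.1, 23.8 and 23.2 CPM in Mfn1&2-/-, against 14.7, 7.51 and 6.93 CPM in WT (1.46 ± 0.27; adjusted p = 0.00619). Zfp583 averaged 16.7 ± 2.93 CPM in Mfn1&2-/- and 7.37 ± 1.84 CPM in WT (1.18 ± 0.25; adjusted p = 0.0144), and Zfp521 averaged 18.5 ± 4.28 CPM and 9.75 ± 2.24 CPM (0.92 ± 0.24; adjusted p = 0.0384). Zfp282 and Zfp420 rose by 0.76 ± 0.17 and 0.64 ± 0.17. Single omissions ended the call of Zfp583 in 2 of 12 cases (Mfn1&2-/- replicate 2 and WT replicate 3), of Zfp282 in 3 (Mfn1&2-/- replicate 3 and WT replicates 2 and 3), of Zfp521 in 6 and of Zfp420 in 7 (highest adjusted p over all alternatives 0.0606, 0.0808, 0.165 and 0.114 in that order).

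Zfp97 had the largest loss after Zfp534, at 1.52, 1.78 and 2.20 CPM in Mfn1&2-/-, against 5.99, 4.39 and 11.1 CPM in WT (-1.96 ± 0.45; adjusted p = 0.021, 0.106 with limma-voom, and not called without any 1 of the Mfn1&2-/- libraries or without WT replicate 3). It shares 67.3% of its 100-base exon words with transcripts of other genes, most often Zfp960, so its counts are uncertain. Zfp960 itself averaged 8.81 ± 0.404 CPM in Mfn1&2-/- and 8.25 ± 3.05 CPM in WT (0.09 ± 0.33; adjusted p = 0.922). Zfp942 stood at 24.2, 27.3 and 24.9 CPM in Mfn1&2-/-, close to its level in Mfn2-/- and below 52.6, 43.3 and 50.4 CPM in WT (-0.94 ± 0.16; adjusted p = 0.00297). Zfp608 had 27.4, 36.6 and 18.5 CPM in Mfn1&2-/-, against 62.6, 49.9 and 46.1 CPM in WT (-0.94 ± 0.22; adjusted p = 0.0213). Zfp709 (-0.96 ± 0.23), Zfp111 (-0.79 ± 0.17), Zfp735 (-0.64 ± 0.16), Zfp646 (-0.63 ± 0.15) and Zfp407 (-0.42 ± 0.11) were also called lower. Zfp608 lost the call without Mfn1&2-/- replicate 3 or WT replicate 1, and Zfp111 without replicate 2 or 3 of Mfn1&2-/-. Zfp709 lost it in 3 of 12 omissions, Zfp646 in 4, Zfp735 in 5 and Zfp407 in 9.

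**Figure D2:**
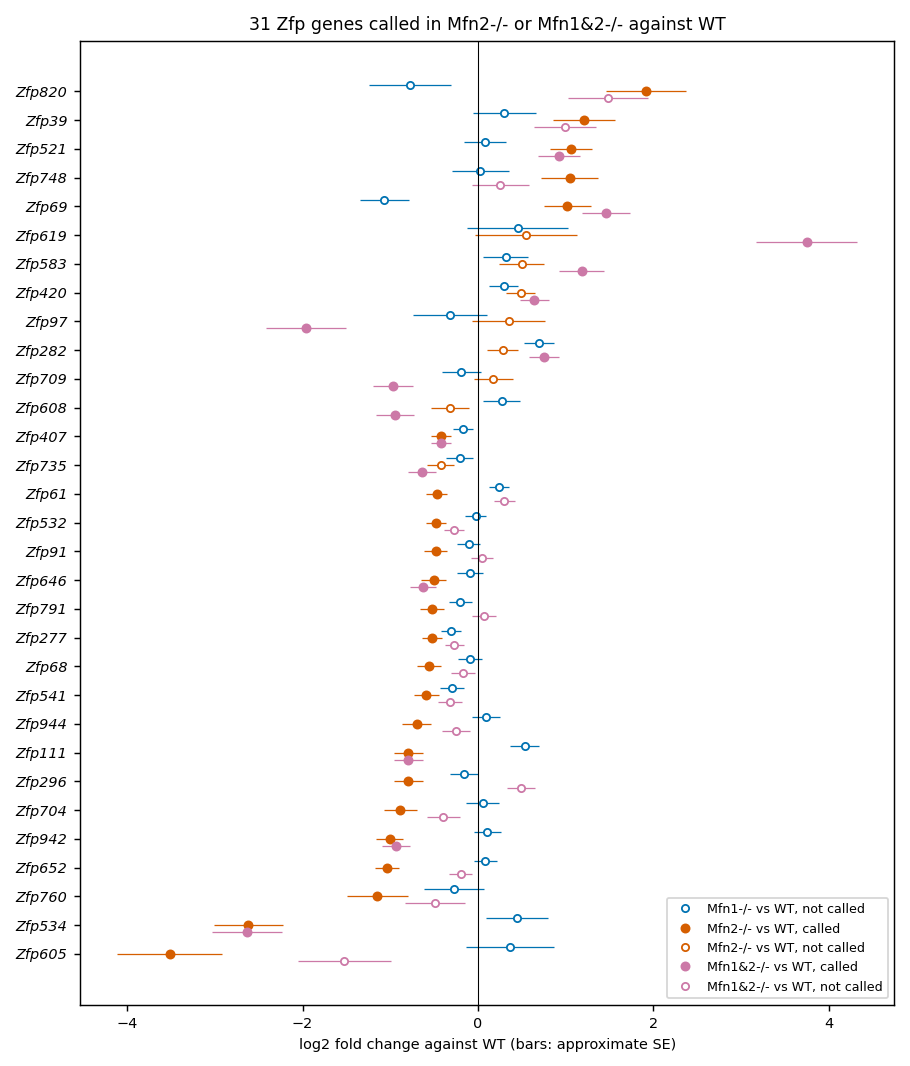
Log2 fold change against WT (horizontal axis; bars, approximate standard error) of the 31 Zfp genes called in Mfn2-/- or Mfn1&2-/-, ordered by the change in Mfn2-/-. Filled points are called and open points are not; no Mfn1-/- point is filled, and the 7 genes filled in both other colours lie on the same side of 0 in both.

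Both comparisons share the WT pools, so their overlap is given as counts. Zfp111, Zfp407, Zfp521, Zfp534, Zfp646, Zfp69 and Zfp942 were called in both and in the same direction, 7 genes that make up 30.4% of the 23 calls in Mfn2-/- and 46.7% of the 15 in Mfn1&2-/-. The overlap of calls over all genes was not counted, so these shares are not read as a trait of members. When the 6 libraries that lack Mfn2 were set against the 6 that carry it, 12 members (4.69%) did not overlap, against 3.5% of all genes. Zfp652, Zfp942, Zfp944, Zfp407, Zfp534, Zfp605 and Zfp111 lay wholly below and Zfp39, Zfp677, Zfp820, Zfp521 and Zfp69 wholly above. Among these, Zfp677 was called in neither comparison with WT. It averaged 6.36 ± 0.551 CPM in Mfn2-/- and 9.41 ± 1.19 CPM in Mfn1&2-/-, against 4.80 ± 1.23 CPM in Mfn1-/- and 4.68 ± 0.591 CPM in WT.

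Loss of both mitofusins was also set against each single loss. Against Mfn1-/-, 17 members were called, 6 higher and 11 lower (6.64%, with 5.36% of all genes called), and 10 were called without Mfn1-/- replicate 1. The smallest p belonged to Zfp69, with 33.1, 23.8 and 23.2 CPM in Mfn1&2-/-, against 5.11, 4.39 and 4.41 CPM in Mfn1-/- (2.52 ± 0.29; adjusted p = 7.62e-05). Zfp820 also rose (2.26 ± 0.47), as did Zfp598 (0.59 ± 0.12), a sensor of collided ribosomes, and Zfp57 (0.35 ± 0.09; adjusted p = 0.0359, lost in 6 of 12 omissions). Zfp111 fell to 55.6, 43.5 and 44.1 CPM in Mfn1&2-/-, against 156, 103 and 101 CPM in Mfn1-/- (-1.33 ± 0.17; adjusted p = 0.000221). Zfp534 (-3.08 ± 0.40), Zfp942 (-1.04 ± 0.16), Zfp608 (-1.21 ± 0.22) and Zfp334 (-0.60 ± 0.12) fell too, as did Zfp644 (-0.58 ± 0.14), a partner of the histone methyltransferases Ehmt1 and Ehmt2, whose call was lost without replicate 1 or 2 of either group (up to 0.08).

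Against Mfn2-/-, 19 members were called, 12 higher and 7 lower (7.42%, with 10.2% of all genes called), and 10 were called without Mfn2-/- replicate 2 and 11 without Mfn1&2-/- replicate 3. Zfp296 led, with 428, 477 and 497 CPM in Mfn1&2-/-, against 199.7, 172 and 205 CPM in Mfn2-/- (1.28 ± 0.17; adjusted p = 0.000346). Zfp61 (0.77 ± 0.12), Zfp652 (0.84 ± 0.13), Zfp28 (1.22 ± 0.27) and Zfp619 were higher in Mfn1&2-/-. Zfp97 averaged 1.83 ± 0.343 CPM in Mfn1&2-/- and 9.13 ± 2.89 CPM in Mfn2-/- (-2.31 ± 0.45; adjusted p = 0.00483). Zfp709 (-1.14 ± 0.23), Zfp692 (-0.97 ± 0.23), Zfp770 (-0.57 ± 0.15) and Zfp329 (-0.73 ± 0.21) were also lower. Of these, Zfp709 kept its call without each library. Zfp692 lost it without Mfn2-/- replicate 3 (adjusted p = 0.0684), Zfp770 without any 1 of the Mfn1&2-/- libraries or Mfn2-/- replicate 2 (up to 0.143) and Zfp329 without any 1 of the 6 libraries compared (up to 0.116). Zfp28 lost its call without Mfn2-/- replicate 2 (adjusted p = 0.0544).

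The interaction was called for 7 members (2.73%, with 4.13% of all genes called), 4 positive and 3 negative. DESeq2's Wald test called 18 members, and the share of all genes it called was not counted. For Zfp296 the interaction was 1.44 ± 0.23 (adjusted p = 0.00436). WT libraries of this gene spread from 249 to 457 CPM, and its exons overlap those of Gemin7 on the opposite strand, which averaged 50.7 ± 5.34 CPM in Mfn2-/- and 37.5 ± 5.56 CPM in WT and was not called (0.43 ± 0.16; adjusted p = 0.0971). For Zfp692 the interaction was -1.70 ± 0.33 (adjusted p = 0.0137), from 9.12 ± 0.135 CPM in Mfn1&2-/-, 18.4 ± 1.39 CPM in Mfn1-/- and 17.9 ± 1.96 CPM in Mfn2-/-, against 11.2 ± 3.51 CPM in WT. Both calls remained without any 1 library. The other 5, Zfp791, Zfp652, Zfp69, Zfp182 and Zfp334, had adjusted p-values of 0.0337 to 0.0496 and each was lost in at least 8 of 12 omissions. Omitting Mfn1-/- replicate 2 gave 4 calls, of which 2 were among the 7. Omitting the third replicate of Mfn2-/-, Mfn1&2-/- or WT left 3, and omitting Mfn1-/- replicate 1 or the second replicate of Mfn2-/- or Mfn1&2-/- left 2. Over the 6 comparisons with and between the groups, interaction included, 48 members were called at least once and 208 never. The matching count over all genes was not made, so nothing about members is read from it.

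The share of strong shifts was then set beside genes of similar level. Genes were put into 5 ranges of mean CPM (under 2, 2 to under 5, 5 to under 10, 10 to under 30, and 30 and over), and the share among the other 11129 genes was weighted to the members' spread over these ranges. For a shift that was called and over 2-fold in Mfn2-/- there were 10 members (3.91%), against 3.81% of other genes at these levels and 3.54% of all genes. In Mfn1&2-/- there were 5 members (1.95%), against 2.27% of other genes at these levels and 2.13% of all genes. Past 8-fold there was 1 member in each, Zfp605 in Mfn2-/- and Zfp619 in Mfn1&2-/- (0.391%), against 0.85% and 0.604% of other genes at these levels. The share of calls of any size was 8.98% of members against 10.7% of other genes at these levels in Mfn2-/-, and 5.86% against 4.05% in Mfn1&2-/-. The number of members past 2-fold in Mfn2-/- was 6 without Mfn2-/- replicate 2, 5 without WT replicate 2 and 5 without WT replicate 3, and in Mfn1&2-/- it was 8 without WT replicate 1 or 2. These shares are a description, with no test between members and other genes.

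**Figure D3:**
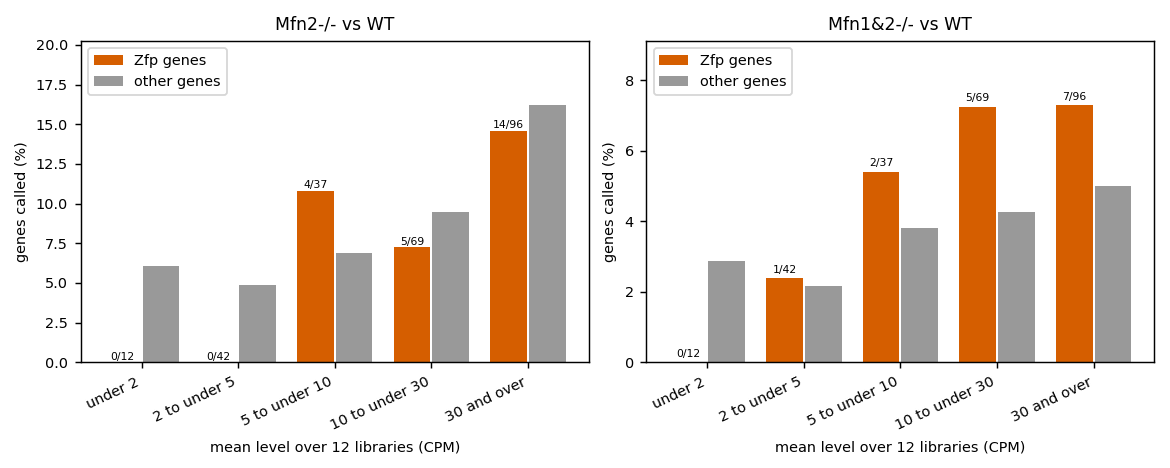
Share of genes called (vertical axis, percent, from 0) in 5 ranges of mean CPM for Mfn2-/- against WT (left) and Mfn1&2-/- against WT (right), with Zfp genes in orange, other genes in grey and the number of Zfp genes called over the number in the range above each orange bar. No Zfp gene under 5 CPM was called in Mfn2-/-, and 14 of 96 at 30 CPM and over were.

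Calls of members sat at higher levels in Mfn2-/-. None of the 54 members under 5 CPM was called, while 6.05% of 628 other genes under 2 CPM and 4.88% of 1536 other genes from 2 to under 5 CPM were. At 30 CPM and over, 14 of 96 members (14.6%) were called, against 16.2% of other genes. Libraries of Mfn2-/- and WT were wholly apart for 59 members (23%), against 31.2% of other genes at these levels and 32% of all genes. For Mfn1&2-/- and WT they were apart for 62 members (24.2%), against 21.7% of other genes at these levels and 22.1% of all genes. The median absolute log2 fold change over members was 0.27 in Mfn1-/-, 0.25 in Mfn2-/- and 0.25 in Mfn1&2-/-, against 0.19, 0.27 and 0.21 over all genes. In WT, the median coefficient of variation under 2 CPM was 43.7% over members and 56.6% over other genes. It was 42.8% and 37.8% from 2 to under 5 CPM, and 34.2% and 25.6% from 5 to under 10 CPM. From 10 to under 30 CPM it was 19.2% and 17.9%, and at 30 CPM and over it was 11.0% and 9.79%.

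**Figure D4:**
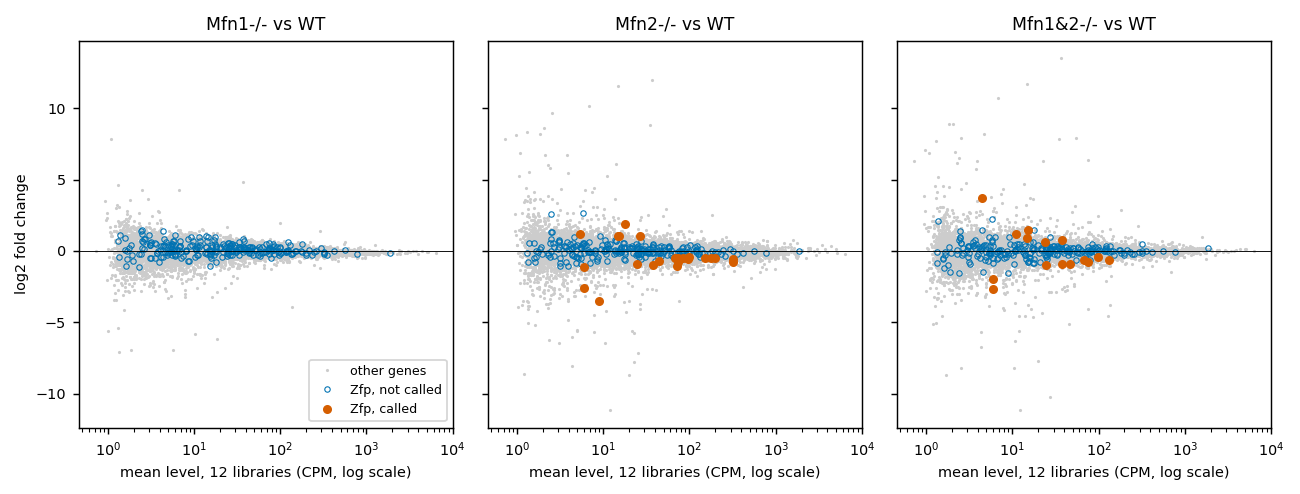
Log2 fold change (vertical axis) against mean level over 12 libraries (CPM, log axis) for Mfn1-/-, Mfn2-/- and Mfn1&2-/-, each against WT, with other genes in grey, Zfp genes not called as open blue circles and Zfp genes called in orange. Zfp genes lie within the cloud of other genes, and the points beyond 5 in either direction are all other genes.

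No member switched wholly on or off. A shift was counted as all-or-none where each library of a group had 3 counts or fewer and each library of the other group had at least 1 CPM. By this rule 0 members were found in each comparison with WT, while 0.0176% of all genes were in Mfn1-/-, 0.149% in Mfn2-/- and 0.176% in Mfn1&2-/-, which is 2, 17 and 20 genes. The share among other genes at the members' levels was 0.0149%, 0.163% and 0.185%, so that under 1 member (0.0382, 0.416 and 0.474) would stand for an equal share of 256. With a looser rule of 10 counts or fewer against at least 2 CPM, 0 members were found as well, against 1, 27 and 20 of all genes. Among members, 8 had a library at 3 counts or fewer, and 2, Zfp36 and Zfp157, had a library at 0. The same counts over other genes were not made.

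The widest ranges between group means were 14.3-fold for Zfp605, 13.5-fold for Zfp619, 8.56-fold for Zfp534, 6.48-fold for Zfp820, 6.44-fold for Zfp708, 6.18-fold for Zfp593 and 5.76-fold for Zfp69. In all, 9 members differed more than 4-fold between their highest and lowest group mean and 52 more than 2-fold. The shares of other genes past these limits were not counted. The median range was 1.51-fold over members and 1.42-fold over other genes, not matched for level. Zfp708 owed its range to single libraries, with 30.1, 3.40 and 0.803 CPM in Mfn2-/- and 3.70, 18.6 and 2.57 CPM in Mfn1&2-/-, against 2.40, 1.18 and 1.75 CPM in WT, and was not called. All of its 100-base exon words (100%) also occur in transcripts of other genes, most often Gm28557, which overlaps it on the same strand, so its counts are uncertain. Zfp593 had 4.39, 5.07 and 4.95 CPM in Mfn2-/- and 2.71, 2.63 and 1.17 CPM in Mfn1-/-, against 2.00, 0.253 and 0.0835 CPM in WT. WT replicate 1 alone held 25 counts, with 3 and 1 in the other WT libraries, and without it Zfp593 met the all-or-none rule in Mfn1-/- and in Mfn2-/- against WT. Its exons overlap E130218I03Rik on the opposite strand. It was chosen after its values were seen, and it was not called (adjusted p = 0.0638 in Mfn2-/-).

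Many members lie beside each other. With gaps under 500 kb, 155 members formed 35 neighbourhoods of 2 or more, and 101 stood alone. In Mfn2-/-, 11 of the 155 (7.1%) and 12 of the 101 (11.9%) were called against WT, and in Mfn1&2-/- 11 (7.1%) and 4 (3.96%), where 11.4% and 4.21% of all genes were called in these comparisons. WT levels of the 2 sets differed, with medians of 15.7 and 29.3 CPM. Members with a KRAB pattern were called in 10 of 120 cases (8.33%) in Mfn2-/- and members without it in 13 of 136 (9.56%), and in Mfn1&2-/- in 7 (5.83%) and 8 (5.88%), beside the same shares of all genes. Past 2-fold in Mfn2-/- there were 7 of the 120 with the pattern and 3 of the 136 without, where 3.54% of all genes were called past 2-fold. The 136 include Zfp939, a pseudogene with no protein-coding transcript to search. Members without the pattern may still carry a KRAB domain that the search missed. Median WT levels of the sets with and without the pattern were 12.8 and 22.2 CPM. These differences were not tested.

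The largest neighbourhood held 17 members on chromosome 17 (21008903 to 23564238, GRCm38). Neighbours in it moved in opposite directions in Mfn2-/-: Zfp820 was called higher and Zfp760, Zfp942 and Zfp944 lower. The promoter windows of Zfp942 and Zfp944 matched at 84.3% of alignment columns, and most of the rest were gaps at the ends. These 2 genes were at 24.2 ± 4.39 and 31.0 ± 7.66 CPM in Mfn2-/-, against 48.8 ± 4.88 and 50.3 ± 3.34 CPM in WT. In Mfn1&2-/- the pair parted, with Zfp942 at 25.4 ± 1.63 CPM and called, and Zfp944 at 42.2 ± 4.41 CPM and not called (-0.25 ± 0.16; adjusted p = 0.449); the difference between the genes was not tested. The exons of Zfp942 share 1.64% of their 100-base words with other genes and those of Zfp944 2.38%. The other 13 members of the neighbourhood were not called against WT.

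**Figure D5:**
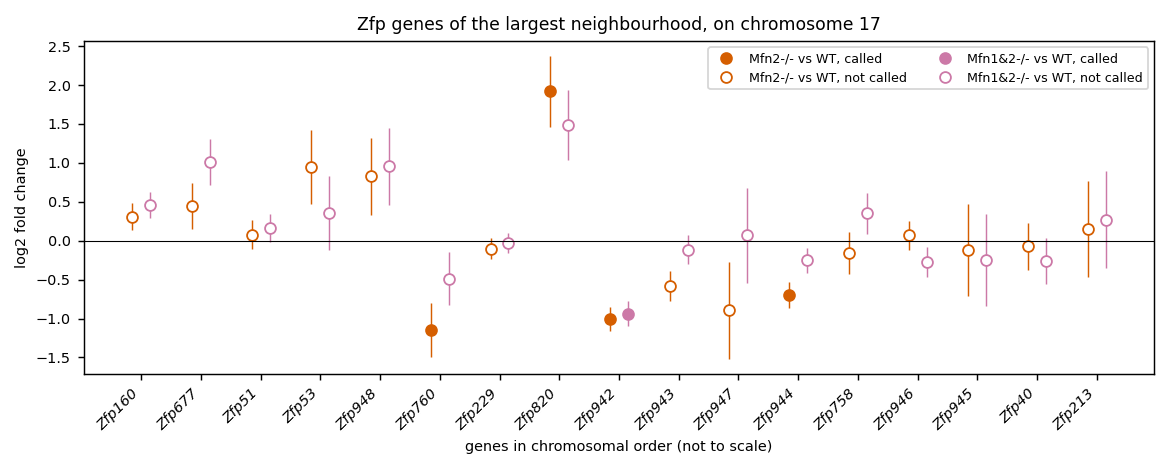
Log2 fold change (vertical axis; bars, approximate standard error) of the 17 Zfp genes of the largest neighbourhood, in chromosomal order and not to scale, for Mfn2-/- (orange) and Mfn1&2-/- (pink) against WT, with called genes filled. Zfp820 is above 0 and Zfp760, Zfp942 and Zfp944 are below it in Mfn2-/-, and Zfp942 is the filled point in Mfn1&2-/-.

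Members with a described role were followed as a list of 39 genes, 35 of them in the table, chosen with earlier results of these data known. In Mfn1-/- none was called against WT. In Mfn2-/- Zfp521 was higher and Zfp91, Zfp296 and Zfp652 lower (median log2 fold change -0.13 over the list), and in Mfn1&2-/- Zfp521 was higher (median 0.03). These 4 and 1 of 35 genes stand beside 11.4% and 4.21% of all genes called, and neither share is a result about the list. The imprint guardian Zfp445 averaged 95.1 ± 13.9 CPM in Mfn1-/-, 76.7 ± 2.71 CPM in Mfn2-/- and 88.7 ± 11.2 CPM in Mfn1&2-/-, against 75.2 ± 10.3 CPM in WT, and was not called. Zfp207, a spindle protein, and Zfp281, a pluripotency factor, were not called either.

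A list of partners of KRAB silencing and of other regulators, such as Dppa3, Rlim, Nr2c1 and Nr2c2, was measured beside the members. Of 35 tested genes on that list that are not members, none was called in Mfn1-/-, 3 were lower in Mfn2-/- and 1 was lower in Mfn1&2-/-, with list medians of -0.00088, -0.05 and 0.007. Over all genes 11.4% were called in Mfn2-/- and 4.21% in Mfn1&2-/-, so 3 and 1 of 35 are no more than the background and the genes below are single values. Trim28 averaged 229 ± 16.7 CPM in Mfn1-/-, 216 ± 7.47 CPM in Mfn2-/- and 220.5 ± 25.8 CPM in Mfn1&2-/-, against 225 ± 9.52 CPM in WT, and Setdb1 was not called either. Atf7ip, which stabilises Setdb1, fell in Mfn2-/- (-0.46 ± 0.10; adjusted p = 0.0081), as did the DNA methyltransferase Dnmt3a (-0.38 ± 0.10; adjusted p = 0.023) and the remodeller Chd4 (-0.37 ± 0.09; adjusted p = 0.0151). Hdac1, a histone deacetylase, stood at 6.65, 6.64 and 8.25 CPM in Mfn1&2-/-, against 15.1, 13.2 and 13.1 CPM in WT (-0.94 ± 0.21; adjusted p = 0.0198).

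Other zinc-finger families are given for comparison as counts only. Of 36 Zbtb genes, 1, 4 and 3 (2.78%, 11.1% and 8.33%) were called against WT in Mfn1-/-, Mfn2-/- and Mfn1&2-/-, where 0.228%, 11.4% and 4.21% of all genes were called. Of 17 Zc3h genes, which bind RNA, the counts were 1, 4 and 0, of 9 Zkscan genes 0, 2 and 0, of 11 Zscan genes 0, 0 and 1, and of 8 Klf genes 0, 1 and 0.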

How the data were processed

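Per the labels' protocols, RNA was isolated with the PicoPure kit, converted into stranded total RNA libraries (SMARTer, low input) and read as 100 bp paired ends on a HiSeq. FastQC 0.11.7, STAR 2.7.0a, edgeR and the mm10 build are named in the submitters' processing notes; annotation, strand setting and treatment of multi-mapped reads are not stated there. The deposited counts are raw whole-number counts per gene made by the authors. The deposited signal table, the authors' CPM, equalled TMM-scaled CPM recomputed from the counts within a relative difference of 5.07e-15. The table held only genes above 1 CPM in at least 3 libraries, and filterByExpr kept all 11385.

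All 12 libraries in 4 groups entered 1 quasi-likelihood fit (R 4.3.3, edgeR 4.0.16; TMM, 8 residual degrees of freedom), with contrasts for 6 comparisons and Benjamini-Hochberg adjustment over all 11385 genes. A call needed an adjusted p below 0.05. Scripts were tested on simulated data. Alternatives were RLE or library-size scaling, a filter at 5 CPM, DESeq2 1.42.0, limma-voom (limma 3.58.1), a fit of only the groups compared, a replicate block, and leaving out each library. Named genes were, against WT, up to 10 called members a direction with the largest change, in the other comparisons up to 5 a direction with the smallest p, any all-or-none member, the 10 most abundant in WT, those within 10 Mb of Mfn1 or Mfn2, and a list with known roles; other called, neighbouring or wide-ranging members were named after their values were seen. Members and lists were chosen with earlier results of these data known. Detection limits cover counting error only.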

Additional observations from a re-analysis of the deposited data

Results flagged for a closer look

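For 7 Zfp genes the effect of losing both mitofusins differed from the sum of the single losses by edgeR's quasi-likelihood test of the interaction, and each is given here as a log2 value. It was 1.44 for Zfp296 (adjusted p = 0.00436; 0.0169 at most over 19 alternatives) and -1.70 for Zfp692 (adjusted p = 0.0137; 0.0402 at most), and leaving out any 1 library ended neither call. It was 1.503 for Zfp69 (adjusted p = 0.0427), which averaged 26.7 ± 5.53 CPM in Mfn1&2-/-, 4.64 ± 0.412 CPM in Mfn1-/- and 19.7 ± 2.58 CPM in Mfn2-/-, against 9.71 ± 4.33 CPM in WT (SD, n = 3 each). It was 0.79 for Zfp791 (adjusted p = 0.0337), 0.76 for Zfp652 (adjusted p = 0.0377), -0.61 for Zfp182 (adjusted p = 0.0471) and -0.61 for Zfp334 (adjusted p = 0.0496). For Zfp69, Zfp791, Zfp652, Zfp182 and Zfp334 the highest adjusted p over the alternatives was 0.0961, 0.0801, 0.0978, 0.12 and 0.125 in that order. These 7 are 2.73% of 256 members, against 4.13% of all genes; DESeq2's Wald test called 18 members and the fit with a replicate block 3, so no order of the shares is read from these counts.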

How the results depend on the processing

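Over the alternatives, 1170 of the results for single named genes kept their direction and their side of the threshold and 243 kept their direction but missed it; none reversed. DESeq2's Wald test called 4 members in Mfn1-/- (1 past 2-fold) and 23 in Mfn1&2-/- (8 past 2-fold) against WT, and 18 for the interaction. A fit of only the groups compared called 9 members in Mfn1&2-/-. The shares of all genes called under the alternatives were not counted. With a threshold of 8-fold in place of 2-fold, 1 member remained in Mfn2-/- and 1 in Mfn1&2-/-. Deviations of same-numbered libraries correlated at -0.167 to 0.196 over 15 pairs, 4 of them over 0.1, and 5 were best with their own number. With 3 pools in each group, these correlations cannot show whether pools were paired. The pools' descriptions carry other numbers, some of them shared between groups, and those were not checked. With a replicate block the interaction had 3 calls, and the other counts stayed within 1.5 times. Leaving out each library in turn gave 0 to 1 calls in Mfn1-/-, 13 to 26 in Mfn2-/- and 7 to 16 in Mfn1&2-/- against WT, 10 to 20 in Mfn1&2-/- against Mfn1-/-, 10 to 20 against Mfn2-/-, and 2 to 8 for the interaction. Past 2-fold it gave 0 in Mfn1-/-, 5 to 12 in Mfn2-/- and 5 to 8 in Mfn1&2-/-, and all-or-none shifts numbered 0 to 1, 0 to 1 and 0. The causes were not tested. In Mfn2-/- against WT, the median standard error of a log2 fold change was 0.709 over members under 2 CPM and 0.522 from 2 to under 5 CPM, against 0.753 and 0.523 over other genes. It was 0.355 over members and 0.345 over other genes from 5 to under 10 CPM, and 0.243 and 0.235 from 10 to under 30 CPM. At 30 CPM and over it was 0.145 and 0.132.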
